A study of Mus musculus with 6 samples.

Results

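The clock output transcription factors are 8 genes chosen by name from the gene count table of the aorta libraries, namely Dbp, Tef, Hlf, Nfil3, Bhlhe40, Bhlhe41, Ciart and Rora. All 8 were among the 55335 genes of the table, and all 8 were among the 16612 genes that passed the filter on low counts. Total RNA of the aorta was sequenced from wild-type C57BL/6 mice, in 3 libraries labelled young (6 weeks) and 3 labelled aged (6 months). The mice carried no transgene or treatment by the labels, and the methods of the study state that they were male. By the methods, vessels were taken mouse by mouse after the surrounding fat had been dissected off, but neither the methods nor the labels say which mice, or how many, went into a library, so p-values measure the spread between these libraries, which may in part be technical. The time of day at which each aorta was taken is not given in the sources used here. Each level is given as CPM, which is the count of a gene relative to a fixed library total after TMM scaling, unless FPKM is named, which also divides by gene length.

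The circadian clock is a feedback loop in which CLOCK or NPAS2 pairs with BMAL1, the protein of Arntl, and switches on genes that carry E-boxes, among them the Per, Cry and Nr1d genes that later oppose it. The output factors pass this rhythm on to other genes. Dbp, Tef and Hlf encode the PAR bZIP activators of D-box elements, and Nfil3 encodes a repressor of the same elements. Bhlhe40 and Bhlhe41 encode the DEC repressors of E-box genes, and Ciart encodes CHRONO, a repressor that acts on the CLOCK and BMAL1 pair. Rora encodes a nuclear receptor that activates genes with ROR elements, which the REV-ERB proteins of Nr1d1 and Nr1d2 repress. In vessels, as in other organs, the clock runs in the resident cells, where Arntl and the PAR bZIP genes peak at opposite times of day.

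The promoters of 7 of the 8 genes were found in the RefSeq table of GRCm38.p6, with 8 starts in all. Of the 7 genes, 4 held a clock motif in the 300 bases from 250 before to 50 after a start. The share of all promoters with any of the motifs was not computed, so shares are given motif by motif. The E-box CACGTG was present in 3 genes, at 4 of 8 starts, against 7.15% of the 32851 promoters of the table. The core TAGGTCA of the ROR and REV-ERB element was present in 1 gene, Nfil3, against 2.61% of all promoters. No match was found for CACGTT (4.68% of all promoters), the D-box TTANGTAA (2.32%) or the core TGGGTCA (3.98%). Both strands were searched, and the motifs do not overlap in these promoters. The 200 bases before each start that holds a match are shown, since E-boxes and ROR elements are the letters through which the clock is known to act, with each match in capitals.
Ciart, chr3:95882229-95882428, minus strand: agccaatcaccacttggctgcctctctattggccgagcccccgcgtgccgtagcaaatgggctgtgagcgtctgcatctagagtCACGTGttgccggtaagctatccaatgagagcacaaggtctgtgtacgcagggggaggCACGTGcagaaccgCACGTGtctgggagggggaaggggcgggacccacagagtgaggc
Bhlhe41, chr6:145865421-145865620, minus strand: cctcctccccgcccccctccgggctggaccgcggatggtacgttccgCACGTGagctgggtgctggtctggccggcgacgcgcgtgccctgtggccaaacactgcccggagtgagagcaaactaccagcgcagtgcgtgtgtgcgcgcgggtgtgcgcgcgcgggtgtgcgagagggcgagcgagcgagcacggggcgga
Tef, upstream start, chr15:81802473-81802672, plus strand: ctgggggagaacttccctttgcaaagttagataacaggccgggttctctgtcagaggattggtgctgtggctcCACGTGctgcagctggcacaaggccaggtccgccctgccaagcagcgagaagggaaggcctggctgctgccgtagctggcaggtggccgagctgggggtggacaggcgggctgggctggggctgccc
Tef, downstream start, chr15:81811214-81811413, plus strand: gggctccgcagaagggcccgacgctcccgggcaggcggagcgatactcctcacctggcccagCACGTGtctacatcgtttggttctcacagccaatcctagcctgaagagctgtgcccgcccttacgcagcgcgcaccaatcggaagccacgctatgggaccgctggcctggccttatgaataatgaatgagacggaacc
Nfil3, chr13:52981040-52981239, minus strand: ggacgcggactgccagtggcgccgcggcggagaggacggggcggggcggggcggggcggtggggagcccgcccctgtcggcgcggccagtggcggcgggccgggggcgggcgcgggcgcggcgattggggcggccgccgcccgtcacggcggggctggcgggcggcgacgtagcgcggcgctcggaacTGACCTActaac
Ciart held 3 E-boxes, whose first bases lay 116, 58 and 44 bases before its start. Bhlhe41 held 1, which began 153 bases before the start, and Tef held 1 before each of its 2 starts, at 127 and 138 bases. In Nfil3 the core lies on the opposite strand and spans the bases from 12 to 6 before the start. These matches describe letters only and are not measured binding sites.

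In GENCODE M21 coordinates of GRCm38, Dbp lies on chromosome 7 from 45705088 to 45710203, Tef on chromosome 15 from 81802421 to 81826863, and Hlf on chromosome 11 from 90336536 to 90390895. Nfil3 lies on chromosome 13 from 52967209 to 52981073, Bhlhe40 on chromosome 6 from 108660629 to 108666925, and Bhlhe41 on the same chromosome from 145858243 to 145865558. Ciart lies on chromosome 3 from 95878503 to 95882251 and Rora on chromosome 9 from 68653786 to 69388246. All 8 are protein-coding, and values are for the whole gene. Reads of genes on the other strand cannot be told apart here, because the strand setting of the counting is not stated. Of the exonic bases of Dbp, 539 of 2993 are shared with Sphk2 on the opposite strand. Bhlhe41 shares 1280 of 6720 with Gm43909, and Tef, Bhlhe40 and Rora share 193, 118 and 82 bases with antisense genes.

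The libraries held between 31049632 and 45832185 counts. Young replicate 1 stood apart in its sex-linked genes, with Xist at 306 CPM against 0.204 to 0.636 CPM in the other 5 libraries, although the mice are stated to be male. The Y-linked gene Ddx3y was at 1.09 CPM in it, against 44.8 to 65.6 CPM elsewhere. The young group is thus mixed in its sex-linked expression. The summed CPM of 5 cardiac muscle markers in young replicate 1 was 275, against 41.0 to 56.9 elsewhere. The summed CPM of smooth muscle markers, the main cells of the aortic wall, lay between 27236 and 39240, and no gene of the 10 marker lists was at 0 in all libraries. Of 16612 genes, edgeR called 0 (0%) between aged and young aorta at an adjusted p below 0.05. An unadjusted p below 0.05 was reached by 1723 genes (10.4%), and DESeq2 called 338 of 14955 (2.26%). Fold changes and counts of the output factors are given with and without young replicate 1, while the likeness of profiles was computed over all libraries only.

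The PAR bZIP genes were well expressed in most libraries and low in young replicate 1. Dbp, the activator with the highest level per length of the 8 genes, was at 10.1, 436 and 316 CPM in young replicates 1, 2 and 3, and at 261, 125 and 205 CPM in aged replicates 1, 2 and 3. Its lowest library lay 12.4-fold below the next, while the other 5 spanned 3.49-fold, and the groups overlap because the young libraries lie on both sides of the aged ones. Tef was at 28.5, 205 and 162 CPM in young and at 159, 58.4 and 223 CPM in aged aorta. Hlf was at 19.0, 62.1 and 49.6 CPM in young and at 46.1, 22.3 and 78.8 CPM in aged aorta. All of these genes were lowest in young replicate 1 and next lowest in aged replicate 2, and the groups overlap for each. The summed CPM of brown fat markers was 1909 in aged replicate 2 and 73.6 to 578 in the other libraries, with 250 in young replicate 1, and its part in these levels was not tested. Endothelial markers summed to 1563 CPM in aged replicate 3, the library in which Tef and Hlf were highest, and to 317 to 461 CPM in the others, and without that library the log2 fold changes of Tef and Hlf were -0.27 and -0.35. The part of endothelial cells was not tested. With all 6 libraries, the log2 fold change of aged over young was -0.37 ± 1.01 (SE) for Dbp, 0.16 ± 0.72 for Tef and 0.17 ± 0.54 for Hlf, with adjusted p of 0.914, 0.951 and 0.926.

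Nfil3, the repressor of D-box genes, was highest in the library in which Dbp was lowest and lowest in the library in which Dbp was highest. It was at 58.6, 3.08 and 14.3 CPM in young replicates 1, 2 and 3, and at 12.2, 18.2 and 5.17 CPM in aged replicates 1, 2 and 3. Young replicate 1 was 3.21-fold above the next library, and young replicate 2 was the lowest. The groups overlap, and the log2 fold change was -1.09 ± 0.94 (SE), with an adjusted p of 0.693. The order of the 6 libraries was the same for Nfil3 as for Arntl, which encodes BMAL1, from young replicate 1 through aged replicate 2, young replicate 3, aged replicate 1 and aged replicate 3 down to young replicate 2. The cardiac marker genes Actc1 (58.9 CPM) and Myh6 (79.7 CPM) were also highest in young replicate 1, against 2.47 to 7.73 CPM and 0.875 to 13.1 CPM elsewhere. Nppa, another cardiac marker, was at 9.49 CPM in young replicate 1 and at most 0.575 CPM elsewhere, with 0 in young replicate 3 and aged replicate 1. The part of such cells in the Nfil3 level was not tested.

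The E-box repressors were low in the same library. Bhlhe40 was at 13.4, 72.9 and 48.0 CPM in young and at 55.3, 51.1 and 78.3 CPM in aged aorta. Bhlhe41 was at 8.30, 57.2 and 44.7 CPM in young and at 35.7, 26.0 and 43.1 CPM in aged aorta. Ciart, whose promoter holds the 3 E-boxes shown above, was at 0.681, 25.4 and 16.8 CPM in young and at 15.8, 14.8 and 19.9 CPM in aged aorta. Young replicate 1 was the lowest library for each of them, by 3.58-fold, 3.13-fold and 21.7-fold from the next, whereas the other 5 libraries spanned 1.63-fold, 2.20-fold and 1.72-fold. The 0.681 CPM of Ciart rest on 33 counts, against 525 to 884 counts in the other libraries, and young replicate 1 was the library with the most counts in all. The log2 fold changes were 0.46 ± 0.53 (SE) for Bhlhe40, -0.07 ± 0.60 for Bhlhe41 and 0.24 ± 0.94 for Ciart, with adjusted p of 0.777, 0.976 and 0.943, and the groups overlap for each.

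Rora, the activator of ROR elements, had another profile. It was at 34.1, 35.3 and 14.9 CPM in young replicates 1, 2 and 3 and at 46.6, 39.9 and 46.4 CPM in aged replicates 1, 2 and 3. Every aged library lay above every young one, the lowest was young replicate 3 and not young replicate 1, and the aged libraries lay close together. The log2 fold change was 0.66 ± 0.32 (SE), with an unadjusted p of 0.0759 and an adjusted p of 0.524, and the exact two-sided permutation test gave p = 0.1, the smallest that 3 libraries against 3 allow. Without young replicate 3 the log2 fold change was 0.36 ± 0.17. The groups overlap for Rora when FPKM is used, at 2.48, 2.64 and 1.14 in young and 3.03, 2.61 and 2.86 in aged aorta. All 5 macrophage markers had positive log2 fold changes, and their summed CPM lay between 29.5 and 33.2 in young and between 45.6 and 98.9 in aged aorta, with Csf1r alone at 12.3 to 14.7 and 16.6 to 37.0 CPM. In tissue RNA, more cells of a type and more RNA per cell cannot be told apart, and the part of macrophages in the Rora level was not tested. The share of counts on mitochondrial genes (14.9% to 21.2% in young, 23.1% to 30.4% in aged aorta) also separated the groups. So did the summed CPM of nerve markers (14.0 to 23.7 in young, 27.0 to 43.8 in aged aorta). With mitochondrial genes left out of the fit, the log2 fold change of Rora was 0.65 ± 0.32 (SE). Beyond this fit, the part of mitochondrial counts and of nerve cells was not tested.

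**Figure D1:**
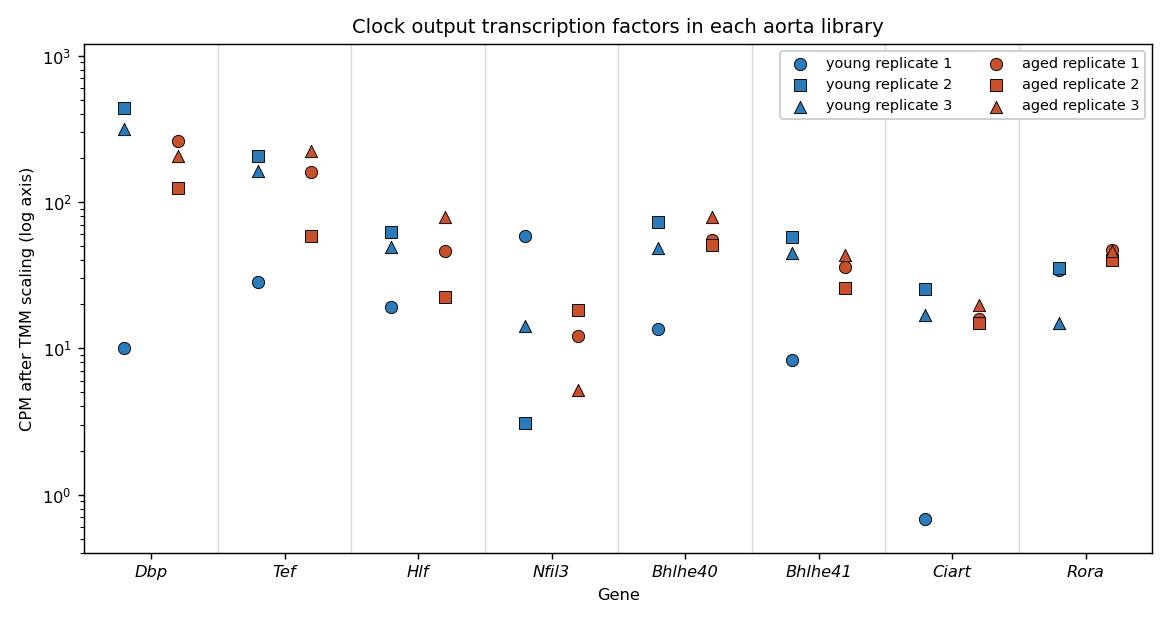
CPM of the 8 genes (horizontal axis) in each library on a log axis, with young libraries in blue, aged libraries in red and 1 marker shape for each replicate number. The blue circle of young replicate 1 is lowest for 6 genes, at 10.1 CPM for Dbp and 0.681 CPM for Ciart, and highest for Nfil3 at 58.6 CPM.

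In the age comparison, 0 of the 8 genes passed an adjusted p below 0.05 with edgeR or with DESeq2, and 0 of 8 had an unadjusted p below 0.05, which 10.4% of all genes reached. In 1 of 8, Rora, the groups did not overlap, against 16.5% of all genes. The median log2 fold change of the 8 was 0.16, against 0.02 over all genes tested, and its sign turned with single libraries, to -0.25 without young replicate 1 and -0.26 without aged replicate 3, while it was 0.58 without young replicate 2. With SE of 1.01 and 0.94 on the log2 scale, a 2-fold age difference in Dbp or Ciart could not be told from none with all 6 libraries. Without young replicate 1 the SE were 0.33 and 0.26, but edgeR again called 0 of 17259 genes. Dbp, at a log2 fold change of -0.93, then had an adjusted p of 0.407 with edgeR. The smaller SE therefore do not show that such a difference was detectable after adjustment.

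Per length, Dbp had the highest mean over the 6 libraries, at 69.3 ± 49.7 FPKM (SD, n = 6). Tef followed at 16.0 ± 9.05, Bhlhe40 at 10.1 ± 4.28 and Nfil3 at 8.47 ± 9.64 FPKM. Hlf was at 6.22 ± 2.97, Ciart at 6.21 ± 3.48, Bhlhe41 at 4.84 ± 2.50 and Rora at 2.46 ± 0.677 FPKM. Dbp lay above Tef by more than the SD of either, and from Tef downwards the means of neighbours in this order differed by less than the larger SD of the pair. The place of Nfil3 rests on young replicate 1, at 27.5 FPKM against 1.48 to 7.68 elsewhere, and without this library its mean was 4.67 FPKM, below those of Ciart (7.40), Hlf (6.93) and Bhlhe41 (5.58). The D-box activators and their repressor changed places between libraries. The ratio of Dbp to Nfil3 on the log2 FPKM scale was -3.11, 6.59 and 3.91 in young replicates 1, 2 and 3, and 3.86, 2.21 and 4.75 in aged replicates 1, 2 and 3. Nfil3 exceeded Dbp in young replicate 1 and lay below it in the other libraries. The ratio of Tef to Nfil3 was below 0 in young replicate 1 (-3.00) and aged replicate 2 (-0.28), as was that of Hlf to Nfil3 (-3.35 and -1.44), and both were above 0 in the other libraries. The ratio of Dbp to Arntl was -0.99, 10.55 and 8.11 in young and 8.45, 5.27 and 8.87 in aged aorta. In contrast, the ratio of the DEC genes, Bhlhe41 to Bhlhe40, stayed between -1.49 and -0.62 in all 6 libraries, with young replicate 1 at -1.22. Such ratios do not depend on the scaling of a library.

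**Figure D2:**
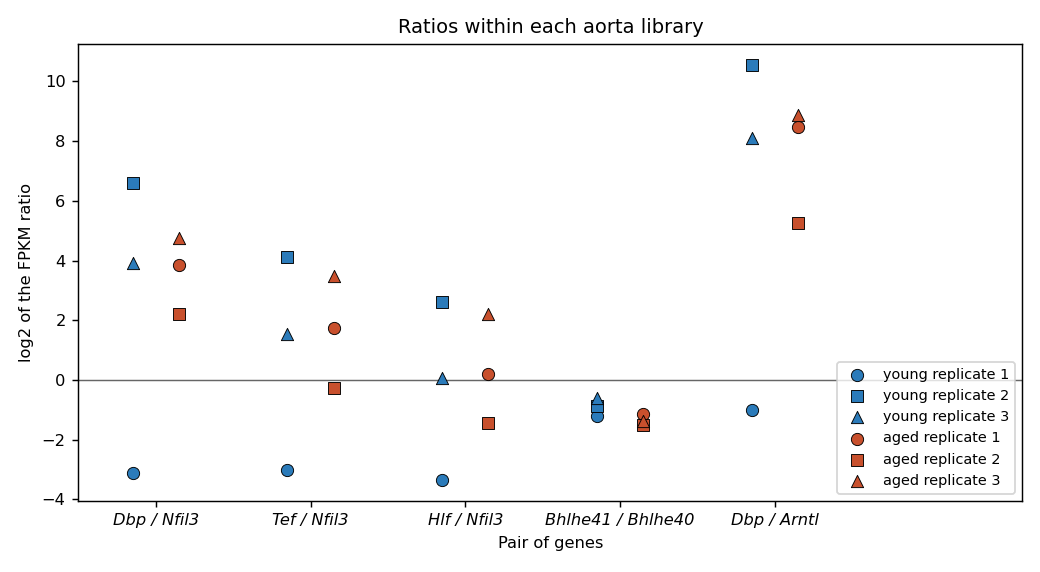
Log2 of the ratio of FPKM between a pair of genes within each library, with young libraries in blue, aged libraries in red and 1 marker shape for each replicate number. Young replicate 1 is alone below 0 for Dbp over Nfil3, at -3.11, while the ratio of Bhlhe41 to Bhlhe40 lies between -1.49 and -0.62 in every library.

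The position of single libraries was compared with that over all genes. Young replicate 1 lay at least 2-fold beyond the other 5 libraries, on the log2 CPM scale, for 6 of the 8 output factors, above for Nfil3 and below for Dbp, Tef, Bhlhe40, Bhlhe41 and Ciart. Over all genes tested, the share of genes with this library so far from the rest was 1.62%, the lowest of the 6 libraries. Young replicate 3 lay so far out for 1 factor, Rora, against 2.52% of all genes. Young replicate 2 and aged replicates 1, 2 and 3 did so for 0 of 8, with shares over all genes of 2.35%, 2.19%, 2.44% and 2.57%. Young replicate 1 was the lowest library for 6 of the 8 and for 12.7% of all genes, and the highest for 1 of the 8 and for 13.1% of all genes. The 8 genes are regulated by a common oscillator and are not independent of each other, so these counts describe 1 library.

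Core clock genes stood apart in the same library. Of 20 genes of the list that were in the table, 19 were tested, and Rorb had at most 0.287 CPM. Young replicate 1 lay at least 2-fold beyond the others for 6 of these, above for Arntl and Npas2 and below for Per1, Per3, Nr1d1 and Nr1d2. Arntl was at 49.8, 0.747 and 2.91 CPM in young replicates 1, 2 and 3 and at 1.87, 8.14 and 1.13 CPM in aged replicates 1, 2 and 3. Npas2, the partner of BMAL1 in place of CLOCK, was at 71.2, 5.40 and 8.51 CPM in young and at 3.22, 9.97 and 2.12 CPM in aged aorta. Both genes were highest in the library in which Dbp and Ciart were lowest. Per1 and Per3, which encode period repressors, were at 21.5 and 13.2 CPM in young replicate 1, against 90.5 to 176 and 35.7 to 159 CPM in the others. Nr1d1 and Nr1d2, the REV-ERB repressors of ROR elements, were at 56.3 and 25.6 CPM, against 131 to 272 and 116 to 176 CPM. Clock was at 60.0 CPM and 14.3 to 36.8 CPM elsewhere, and Per2 at 47.3 CPM and 93.1 to 204 CPM elsewhere, which are distances of 1.63-fold and 1.97-fold to the nearest library. Cry1, Cry2, Csnk1d, Csnk1e, Btrc, Fbxw11 and Timeless lay within the range of the other libraries in young replicate 1, and Fbxl21 and Arntl2 lay outside it by at most 1.19-fold. The latter groups hold the kinases and ubiquitin ligase subunits that set the stability of PER and CRY proteins.

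In the age comparison of the core clock list, 0 of 19 were called by edgeR or DESeq2 and 1 had an unadjusted p below 0.05, which 10.4% of all genes had. This was Clock, with a log2 fold change of -1.08 ± 0.39 (SE), an unadjusted p of 0.0260 and an adjusted p of 0.429. Without young replicate 1, in which Clock was highest, it had -0.72 ± 0.38 and an unadjusted p of 0.106. The median of the list was -0.06.

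**Figure D3:**
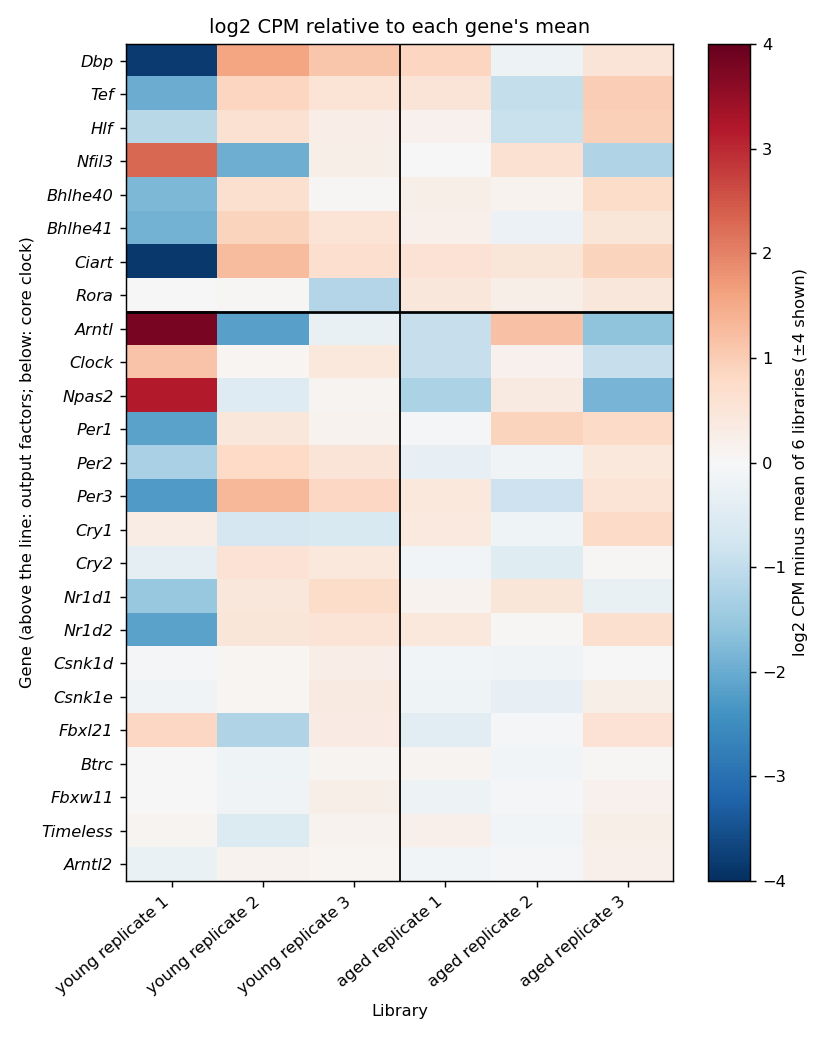
Log2 CPM of the 8 output factors (above the black line) and of core clock genes (below it) in each library, minus the mean of the 6 libraries for that gene, with red for above and blue for below the mean. Young replicate 1 holds the deepest colours, blue for Dbp and Ciart and red for Nfil3, Arntl and Npas2, while Csnk1d and Btrc are pale in all libraries.

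Without young replicate 1, no output factor passed the adjusted threshold, and several fold changes turned. Dbp had a log2 fold change of -0.93 ± 0.33 (SE), with the 2 young libraries that remain above each of the 3 aged ones, an unadjusted p of 0.0300 and an adjusted p of 0.407. Bhlhe41 had -0.54 ± 0.26 and likewise no overlap, with aged aorta lower. Ciart, Tef and Hlf had -0.32 ± 0.26, -0.31 ± 0.52 and -0.18 ± 0.49, so that the sign of each turned, and Nfil3 turned to 0.46 ± 0.75. Bhlhe40 was at 0.03 ± 0.28, and Rora stayed higher in aged aorta at 0.83 ± 0.37. In this comparison 0 of 8 passed the adjusted threshold, as did 0 of 17259 genes (0%), and 1 of 8, Dbp, had an unadjusted p below 0.05, against 11.3% of all genes. The groups did not overlap for 3 of 8, namely Dbp, Bhlhe41 and Rora, against 33% of all genes. Of the core clock list, 3 of 19 then had an unadjusted p below 0.05. These were Cry1 at 1.03 ± 0.33, Cry2 at -0.67 ± 0.20 and Per2 at -0.64 ± 0.26, with adjusted p of 0.397, 0.397 and 0.440.

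**Figure D4:**
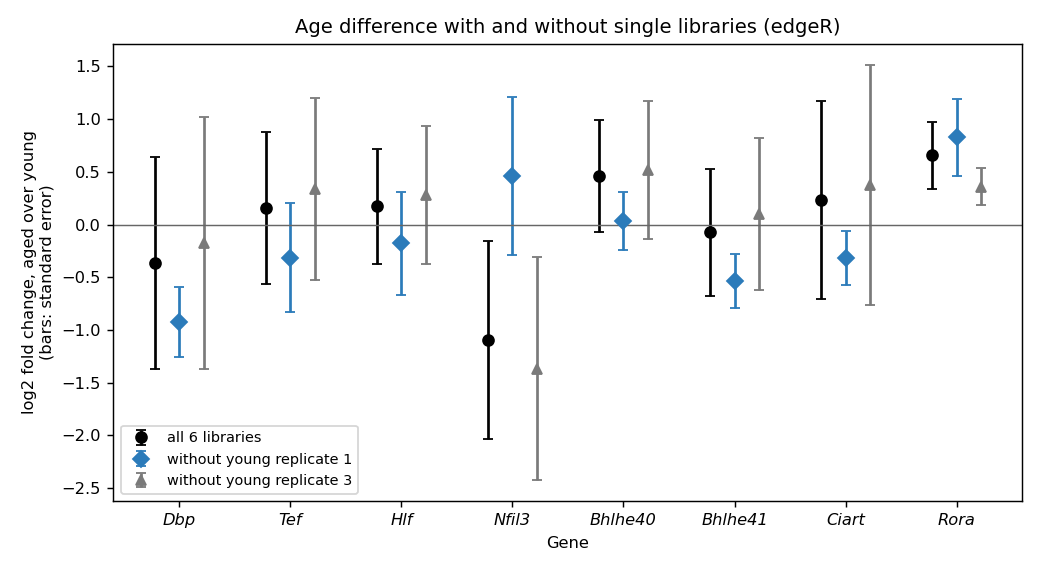
Log2 fold change of aged over young aorta for each of the 8 genes, with bars of 1 SE, fitted with all 6 libraries (black), without young replicate 1 (blue) and without young replicate 3 (grey). Without young replicate 1 the bars shorten for Dbp, from 1.01 to 0.33, and Nfil3 moves from -1.09 to 0.46.

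Genes known to follow the clock in tissues were read from a further list, of which 16 of 18 were tested. Of these, 0 were called by edgeR or DESeq2, and 3 had an unadjusted p below 0.05 with edgeR, all higher in aged aorta, against 10.4% of all genes in either direction. With DESeq2 7 had an unadjusted p below 0.05, against 1146 higher and 830 lower in aged aorta of 16565 genes. With limma on FPKM 1 did, against 418 higher and 2249 lower of 16612 genes on log2(FPKM + 1). Without young replicate 3, edgeR also gave 1, against 667 higher and 394 lower of 17306 genes. The median of the list was 0.63, and 0.36 without aged replicate 2, the library with the highest summed CPM of brown fat markers. Por, which passes electrons to cytochrome P450 enzymes, had a log2 fold change of 0.81 ± 0.23 (SE) and was at 77.8, 127 and 107 CPM in young and 143, 194 and 207 CPM in aged aorta. Nampt, which makes the NAD precursor, had 0.63 ± 0.26 and was at 66.4, 71.0 and 54.0 CPM in young and 77.7, 139 and 79.5 CPM in aged aorta. Usp2, a ubiquitin protease, had 1.79 ± 0.65 and was at 3.10, 5.81 and 4.14 CPM in young and 3.94, 28.4 and 12.6 CPM in aged aorta. Both were highest in aged replicate 2. The adjusted p of Por, Nampt and Usp2 were 0.382, 0.472 and 0.436. The groups did not overlap for Por and Nampt, 2 of 16, against 16.5% of all genes. Without young replicate 1, 3 of 16 had an unadjusted p below 0.05, against 11.3% of all genes, with a median of 0.72.

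Glucocorticoids also set clock genes in vessels, and their target genes were read as a further list, together with the gene of their receptor. Like the other lists, it was chosen with earlier results of these data known. Its counts are therefore a description and not a test. Of the 13 genes of that list, 7 had an unadjusted p below 0.05 and were higher in aged aorta, against 10.4% of all genes in either direction. After adjustment over all genes edgeR called 0, while DESeq2 called 7, against 2.26% of all genes. The median log2 fold change was 1.72, and 1.21 without aged replicate 2. In that fit edgeR called 1 of the 13, and 110 of 17147 genes in all. Fkbp5, a co-chaperone of the receptor, had 3.11 ± 0.53 (SE) with an adjusted p of 0.306, and was at 6.27, 16.4 and 14.7 CPM in young and 55.6, 177 and 88.9 CPM in aged aorta. Cebpd, a bZIP factor, had 1.80 ± 0.28 and Tsc22d3, which encodes GILZ, 1.98 ± 0.49. Mt1, a metallothionein and the most abundant of the list per length, had 1.76 ± 0.41, and the log2 fold changes of Errfi1, Ddit4 and Mt2 lay between 1.72 and 2.58. Of the genes named here, Fkbp5, Tsc22d3, Cebpd, Ddit4, Mt1 and Mt2 were lowest in young replicate 1, and Errfi1 was not. All of them were named for a low p and were higher in aged aorta, which makes a young library likely to be lowest. Their number is therefore not set against that of the output factors or of all genes. Aged libraries lay above all young ones for 6 of the 13 and below for 1, against 16.5% of all genes in either direction. Without young replicate 1, 6 of 13 had an unadjusted p below 0.05, against 11.3% of all genes, with a median of 1.57.

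Relatives of the output factors by protein family were read as well. Of 16 tested relatives, 2 were higher and 1 was lower in aged aorta at an unadjusted p below 0.05, against 10.4% of all genes. The median was 0.14, and -0.13 without aged replicate 2. After adjustment edgeR called 0 and DESeq2 called 2, against 2.26% of all genes. Cebpb, a bZIP factor, had a log2 fold change of 2.03 ± 0.35 (SE), with an adjusted p of 0.306, and Cebpd has been given above. Hey2, a bHLH repressor downstream of Notch, had -0.74 ± 0.23, with an adjusted p of 0.390, and Heyl, the most abundant relative per length, had 0.00 ± 0.27. The nuclear receptor relatives Thra and Nr1h3 had -0.39 ± 0.25 and 0.29 ± 0.25.

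The genes most like each output factor were those with the smallest root mean square difference between centred log2 CPM profiles over the 6 libraries, among 14077 genes. For Dbp they were Tmem170b (0.51), a gene without a symbol (0.54) and Gm29650 (0.55), where the median over all genes was 1.84. For Tef they were Ptch1 (0.22), Slc7a2 (0.27) and Lrrc47 (0.30), and for Hlf they were Lvrn (0.19), Engase (0.21) and Atp2b2 (0.25). Bhlhe41 was most like Gm26917, Nr1d2 and Slc7a2, at 0.25 to 0.26, so that a core clock gene and a gene also named for Tef appear here. For Bhlhe40 they were Pnmt, Birc5 and Wee1, at 0.19 to 0.21. For Ciart they were Alms1-ps2 (0.21), Arl5b (0.38) and the Y-linked gene Ddx3y (0.44), which had 53 counts in young replicate 1 and 1488 to 2117 elsewhere. Nfil3 was most like Ttn (0.42), Prob1 (0.50) and Actc1 (0.64), of which Ttn and Actc1 encode sarcomere proteins. For Rora they were the mitochondrial tRNA genes mt-Tl1 and mt-Tg and Cd74, at 0.12 to 0.13, beside a median of 0.64. Profiles over 6 libraries that hold 1 library far from the rest are alike for many genes, and the likeness is a description only.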

How the data were processed

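Aorta RNA was sequenced in 3 libraries of young and 3 of aged mice, and the authors deposited raw counts per gene and FPKM per gene, which scale the counts for gene length and library. The submitters' processing notes name the build mm10, while the aligner, counter, annotation and strand setting are not given in the sources used here. Libraries were grouped by their labels. In R 4.3.3, edgeR 4.0.16 kept genes by filterByExpr (count minimum of 10, total minimum of 15, by group). Counts were scaled by TMM and fitted by quasi-likelihood without covariates, and Benjamini-Hochberg adjusted p-values over the whole set of tested genes were called below 0.05. The SE is the log2 fold change divided by the square root of F. The permutation test used log2(CPM + 0.5). The fit was tested on simulated data. Alternatives were RLE factors, other filters, a replicate block, a robust fit, DESeq2 1.42.0, limma 3.58.1 on log2(FPKM + 1) and log2(FPKM + 0.1), removal of mitochondrial genes, and each library left out. Gene positions came from GENCODE M21 and promoters from RefSeq on GRCm38.p6.

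The members and lists were chosen with earlier results of these data known. The genes named are the 8 factors, the core clock list, those of the other lists at an unadjusted p below 0.05 with the most abundant tested gene of each per length, the 3 genes most like each factor among genes whose mean reached 1 CPM, and the marker lists in summed CPM. Some list genes beyond this rule (Thra, Nr1h3, Myh6, Actc1, Nppa and Csf1r) were picked after their values were seen. Values of 3 further list genes are not reported here.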

Additional observations from a re-analysis of the deposited data

How the results depend on the processing

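The number of output factors called stayed at 0 under every alternative, and the signs of Bhlhe40 and Rora did not turn under any. Genes called rose from 0 to 338 with DESeq2 and ranged from 0 to 110 when a library was left out, with 110 without aged replicate 2. Factors with an unadjusted p below 0.05 ranged from 0 to 1 and those whose groups do not overlap from 1 to 3 when a library was left out, and the latter were 0 on FPKM. The highest of each came without young replicate 1, where 11.3% and 33% of all genes did so, against 10.4% and 16.5% with all libraries. The share of all genes without overlap was not computed for FPKM or for the other libraries left out. Core clock genes with an unadjusted p below 0.05 were 2 with DESeq2, with limma at either pseudocount and without the filter, and ranged from 0 to 3 when a library was left out. With limma on log2(FPKM + 1) and log2(FPKM + 0.1), the log2 fold change of Dbp turned to 0.43 and 0.53 and that of Hlf to -0.059 and -0.064, while with the latter Bhlhe41 turned to 0.067 and Ciart moved to 0.98. These fits moved the median of all genes from 0.02 to -0.12 and -0.19, and genes with an unadjusted p below 0.05 from 923 higher and 800 lower in aged aorta to 418 and 2249, and to 442 and 2221. When a library was left out, the log2 fold change ranged from -0.93 to 0.28 for Dbp, -0.31 to 0.63 for Tef, -0.35 to 0.53 for Hlf, -1.61 to 0.46 for Nfil3, -0.54 to 0.41 for Bhlhe41 and -0.32 to 0.96 for Ciart. Groups left with 2 libraries share the spread estimated over both groups. The causes were not tested, beyond the loss of the library named.

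With the replicate block, the fold changes of Dbp and Bhlhe41 turned to 0.26 and 0.26, those of Ciart, Tef and Nfil3 moved to 1.00, 0.39 and -0.62, and 0 genes were called, as without it. Same-numbered young and aged libraries had correlated deviations of 0.08, 0.12 and 0.10, each library correlating best with its own number, which is a hint from the data and not from the labels. No source states a shared litter, batch or day, and a correlation was below 0.1 in 2 of the 3 pairs, so the numbers were not taken to pair the libraries.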
